A study of Mus musculus with 24 samples.

Results

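The 10 genes described here serve the presentation of peptides on class II molecules of the major histocompatibility complex (MHC), together with the costimulation that goes with it. They were taken by mouse gene symbol from the count table and are H2-Aa, H2-Ab1, H2-Eb1, H2-DMa, H2-DMb1, Cd74, Ciita, Cd80, Cd86 and Cd40, which make up 10 of its 56205 gene rows. Poly(A) RNA was sequenced from whole livers of C57BL/6J mice that received either a methionine-choline deficient (MCD) diet or a control diet, in both cases for 20 weeks, with 12 libraries per diet. Without methionine and choline, mice develop fatty and inflamed livers with scarring, which makes the diet a model of steatohepatitis. The mice carried no transgene, and the MCD diet is a high-fat one by the study's methods. The series description names 6 animals of each sex per diet. The labels give no sex, age, litter or batch for a single library, and they do not say that each library was a separate animal, so p-values measure the spread between libraries.

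Class II molecules are surface proteins of dendritic cells, B cells and macrophages, made of an alpha and a beta chain. The invariant chain (CD74) fills their groove until cathepsins cut it down in the endosome, and H2-DM then exchanges the remaining fragment for a peptide that CD4+ T cells can read. CIITA is the coactivator that turns on the class II genes at once, in myeloid cells often after interferon gamma, and it acts through factors that sit on an X box and a Y box in their promoters. CD80 and CD86 on the presenting cell engage CD28 on the T cell, and CD40 receives the signal of CD40 ligand. In healthy liver the main class II-bearing cells are Kupffer cells, dendritic cells and B cells.

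Promoter stretches are shown for H2-Aa and H2-Eb1, the alpha chain gene and the beta chain gene of the classical class II molecules for which a promoter was at hand. They come from RefSeq on GRCm38.p6, which held a promoter for 5 of the 10 genes (H2-Aa, H2-Eb1, H2-DMa, H2-DMb1 and Cd80). Each run is written 5′ to 3′ on the strand of the gene and covers positions -130 to -1 before the RefSeq start. H2-Aa lies on the minus strand (chr17:34287824-34287953) and H2-Eb1 on the plus strand (chr17:34305737-34305866). Capitals mark 3 motifs searched on both strands, namely the Y box ATTGG, the X box core AACNGATG and the cyclic AMP response element TGACGTCA, none of which overlapped another in these runs.
H2-Aa: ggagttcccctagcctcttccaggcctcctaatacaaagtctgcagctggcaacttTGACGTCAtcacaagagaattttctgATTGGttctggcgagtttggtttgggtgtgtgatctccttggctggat
H2-Eb1: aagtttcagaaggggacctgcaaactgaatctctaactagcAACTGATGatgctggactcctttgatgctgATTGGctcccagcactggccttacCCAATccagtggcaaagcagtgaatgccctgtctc

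In H2-Eb1 the X box core began at position -89 and the Y box at position -59, with a second Y box on the other strand at position -35. In H2-Aa the Y box began at position -48 and the cyclic AMP response element at position -74, while the X box core as spelled above had no match. H2-DMb1 held an X box core at position -92 and a Y box at position -61. H2-DMa had 2 promoter entries, of which 1 held a Y box, at position -198, and Cd80 held none of the 3 motifs. Across all 32851 promoters of the same length in the table, 37.4% held the Y box, 2.32% the X box core and 1.79% the cyclic AMP response element. A match describes letters only.

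The 5 H2 genes lie together on chromosome 17 by GENCODE M21 on GRCm38. H2-DMa (ENSMUSG00000037649) spans chr17:34119541-34139101, H2-DMb1 (ENSMUSG00000079547) chr17:34153072-34160230, H2-Ab1 (ENSMUSG00000073421) chr17:34257689-34269419, H2-Aa (ENSMUSG00000036594) chr17:34282744-34287823 and H2-Eb1 (ENSMUSG00000060586) chr17:34305867-34316674. Cd74 (ENSMUSG00000024610) lies on chromosome 18 and Cd40 (ENSMUSG00000017652) on chromosome 2. Ciita (ENSMUSG00000022504), Cd80 (ENSMUSG00000075122) and Cd86 (ENSMUSG00000022901) lie on chromosome 16. Exons of H2-DMa overlap Brd2 and exons of Ciita overlap Dexi on the opposite strand, and Cd74 overlaps Mir5107 on its own strand. Whether counting used strand is not given for these libraries, so these 3 genes may share reads with their neighbour. H2-DMb1 has a close copy, H2-DMb2, and reads between these copies could have been split by the counting.

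Total counts ran from 16793207 to 24915175 in control libraries and from 16388650 to 24577848 in MCD libraries. Levels are given as CPM, library-scaled counts (counts per 1000000) with TMM factors, which ran from 0.642 to 0.973 in control and from 1.07 to 1.26 in MCD and so did not overlap between the diets. The lowest factor belonged to control replicate 12, a library that stood apart. Its summed hepatocyte markers (162900 CPM) and its summed level of the 10 genes (795 CPM) were the highest of the control libraries, as were its sums for T cell markers (7.87 CPM) and cholangiocyte markers (14.9 CPM), and its level of Ptprc, the pan-leukocyte gene encoding CD45, was the lowest (5.68 CPM against 6.37 to 15.0 in the other 11). Results that rest on this library are given with and without it. The labelled tissue was checked by Alb, the hepatocyte gene for albumin, which was at 37950 CPM or more in every library. The livers were measured in bulk, so that more cells of a type and more RNA per cell cannot be told apart in any result below.

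The livers of mice on the MCD diet carried more mRNA for the chains of class II molecules, for the genes that load them and for Cd40. The 3 chains of the classical molecules, the invariant chain and both chains of H2-DM were 2.60 to 3.17 times as high as in control livers, Ciita was 1.65 times as high and Cd40 5.49 times. Cd86 (1.36 times) and Cd80 (1.35 times) were not past the threshold. In all, 8 of the 10 genes were higher and 0 lower with an FDR (Benjamini-Hochberg) of at most 0.01 and an absolute log2 fold change above 0.5 (edgeR quasi-likelihood test over 14109 genes). Of all genes tested, 19.2% were higher and 19.1% lower by the same rule, so that 50.2% of the called genes were higher, a share that was 65.6% with upper-quartile factors and 84.3% with total counts alone as the scaling. The median log2 fold change was 1.48 over the 10 genes and -0.10 over all genes tested.

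H2-Aa, which encodes the alpha chain of the I-A molecule, was at 21.6 CPM in the lowest control library, at 50.4 in the median one and at 90.5 in the highest. The lowest, median and highest MCD libraries were at 106, 151 and 189 CPM. All 12 MCD libraries were above every control library. The log2 fold change was 1.56 (edgeR FDR 1.76e-07, SE 0.20), from 51.2 ± 23.2 CPM in control to 151 ± 24.9 CPM in MCD (SD, n = 12 each).

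H2-Ab1, the gene of the matching beta chain, ran from 22.1 through a median of 49.3 to 97.8 CPM in control libraries and from 108 through 154 to 200 CPM in MCD libraries. The diets did not overlap here either, although the highest control library, replicate 12, lay close under the lowest MCD library, replicate 9. The log2 fold change was 1.59 (edgeR FDR 2.42e-07, SE 0.21).

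H2-Eb1 encodes the beta chain of the I-E molecule. Its control libraries ran from 18.9 through 48.8 to 137 CPM and its MCD libraries from 110 through 159 to 211 CPM. A single MCD library, replicate 9, fell within the control range, and that range was set by control replicate 12. The log2 fold change was 1.55 (edgeR FDR 3.25e-06, SE 0.24). H2-Ea, the gene of the partner alpha chain, had 0 counts in all 24 libraries. C57BL/6 mice are known to lack a functional copy of it and to make no I-E molecule.

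Cd74, the invariant chain, was the most abundant of the 10 genes per length. It ran from 66.0 through 165 to 438 CPM in control libraries and from 339 through 473 to 593 CPM in MCD libraries. In MCD, 10 of the 12 libraries were above every control library, and control replicate 12 was again the highest of its diet. In log2 units it was 1.38 higher (edgeR FDR 1.07e-05, SE 0.23).

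H2-DMa and H2-DMb1 encode the chains of H2-DM, the molecule that loads peptides. H2-DMa ran from 2.89 through 7.69 to 16.95 CPM in control and from 15.7 through 20.9 to 27.9 CPM in MCD, with 11 of 12 MCD libraries above every control library (log2 fold change 1.40, SE 0.20, edgeR FDR 1.17e-06). H2-DMb1 ran from 2.71 through 6.40 to 12.3 CPM in control and from 16.3 through 20.1 to 26.4 CPM in MCD, with no overlap (1.66, SE 0.19, FDR 2.50e-08).

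Ciita, the master coactivator, rose less. Its control libraries ran from 0.818 through 2.94 to 4.54 CPM (12 to 94 counts) and its MCD libraries from 3.19 through 4.53 to 5.65 CPM (64 to 139 counts). Only 6 MCD libraries were above every control library. The log2 fold change was 0.73 with a 95% confidence interval from 0.28 to 1.17 (edgeR FDR 0.00483, SE 0.22). Ciita was no longer past the threshold with a log2 limit of 1.

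Cd40, the receptor through which T cells license the presenting cell, had the largest fold change of the 10. Its control libraries held 2 to 16 counts (median 5) and its MCD libraries 36 to 92 counts (median 62). In CPM this was 0.118 through 0.333 to 0.833 in control and 1.68 through 2.42 to 3.35 in MCD, and all 12 MCD libraries were above every control library. The log2 fold change was 2.46 (edgeR FDR 1.2e-09, SE 0.23). In 2 control libraries the count was at or under the floor of 3 counts, and few control reads thus stand behind this fold.

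Cd86 and Cd80 encode the ligands of CD28. Cd86 ran from 1.71 through 2.82 to 5.32 CPM in control and from 3.21 through 4.44 to 5.80 CPM in MCD, with 1 MCD library above every control library. Its log2 fold change of 0.45 (edgeR FDR 0.016, SE 0.16) missed both limits. Cd86 was past the threshold with total counts alone as the scaling (0.79, FDR 0.000296) and in 7 of 11 alternatives in all. It also passed, at 0.52 to 0.53, in the fits without control replicate 4 or 5 or without MCD replicate 4 or 8. Cd80 rested on few reads, with 0 to 17 counts in control libraries and 4 to 31 in MCD libraries. It ran from 0 through 0.531 to 0.984 CPM in control and from 0.199 through 0.646 to 1.15 CPM in MCD. Its log2 fold change was 0.43 with an interval from -0.23 to 1.10 (edgeR FDR 0.246, SE 0.32), an interval that holds both no change and a fold as large as that of Ciita, so that neither can be told at this depth. In 3 control libraries Cd80 was at or under 3 counts.

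**Figure D1:**
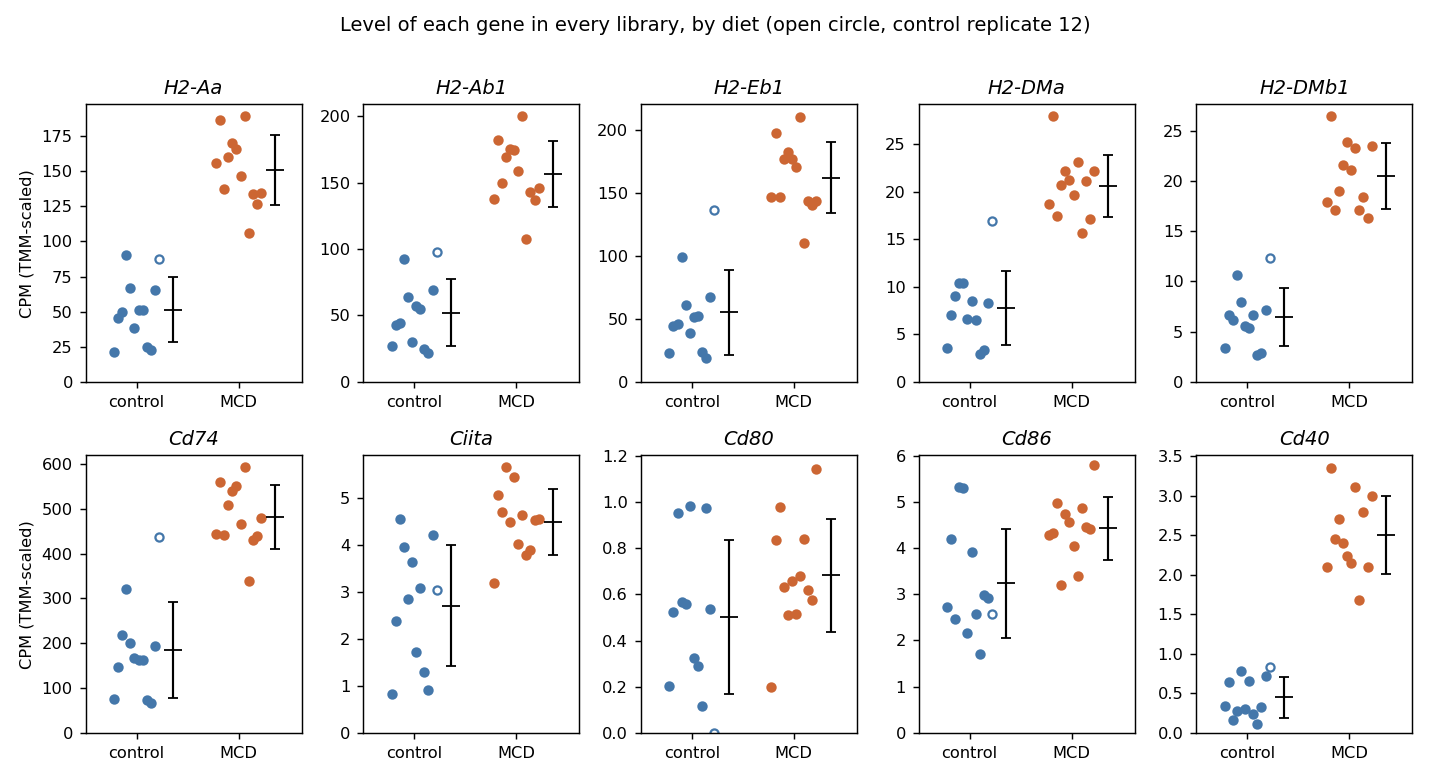
CPM (TMM-scaled, linear axis from 0) of each of the 10 genes in the 12 control (blue) and 12 MCD (orange) libraries, with mean and SD in black beside each group; the open circle is control replicate 12. The diets are apart for H2-Aa, H2-Ab1, H2-DMb1 and Cd40, overlap through control replicate 12 for H2-Eb1, H2-DMa and Cd74, and overlap for Ciita, Cd80 and Cd86.

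For 4 of the 10 genes every MCD library lay above every control library, against 9.50% of all genes tested. Without control replicate 12 this held for 7 genes, with H2-Eb1, H2-DMa and Cd74 added, against 11.7% of all genes tested. With libraries scaled by total counts alone it also held for 7, against 17.5% of all genes tested, and control replicate 12 was then the highest control library for 1 of the 10 genes, against 6 with TMM factors. Under that scaling the median log2 fold change of all genes rose by 0.37 and the 8 genes kept their direction, with values from 1.06 for Ciita to 2.83 for Cd40. Without control replicate 12 the classical chains were at 1.69 (H2-Aa), 1.74 (H2-Ab1) and 1.79 (H2-Eb1), and Cd74 was at 1.60.

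**Figure D2:**
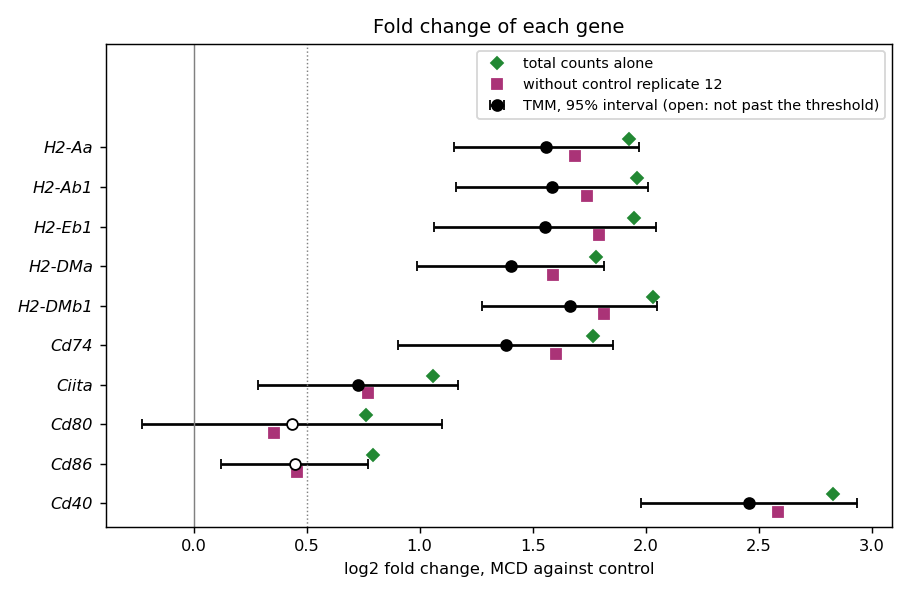
Log2 fold change of MCD against control for each gene, with the edgeR 95% interval (black; open where not past the threshold), the value with total counts alone (green diamond) and the value without control replicate 12 (purple square); the dotted line is the limit of 0.5. Cd40 (2.46) stands to the right of the class II genes (1.38 to 1.66), and Ciita (0.73), Cd86 (0.45) and Cd80 (0.43) to the left.

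Control livers varied more than MCD livers. The coefficient of variation of CPM for the 6 class II genes, Cd74 included, was 45.0% to 61.0% in control and 14.7% to 17.5% in MCD. On the log2 scale the control SD of these genes was 2.89 to 3.74 times the MCD SD, where the median over all genes tested was 1.81 times. Without control replicate 12 these values were 2.69 to 3.28 times and 1.48 times. The mean log2 CPM of H2-Aa, H2-Ab1, H2-Eb1 and Cd74 was lowest in control replicates 10 (4.82), 1 (4.99) and 9 (5.02), followed by replicate 6 (5.70), and the highest were replicates 4 (6.997) and 12 (7.23). In MCD it ran from 7.17 (replicate 9) to 8.04 (replicate 8). The diets overlapped on this mean, as control replicate 12 lay above MCD replicate 9, while the other 11 control libraries lay below every MCD library.

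Levels of different genes were compared per length, as TPM (length-scaled, summing to 1000000 per library) of the longest coding transcript. In control livers the order was Cd74 (209 ± 103 TPM), H2-Aa (73.6 ± 34.4), H2-Ab1 (69.0 ± 32.9), H2-Eb1 (52.1 ± 26.6), H2-DMb1 (7.40 ± 3.16), H2-DMa (6.20 ± 2.60), Cd86 (2.09 ± 0.910), Ciita (0.757 ± 0.428), Cd80 (0.273 ± 0.190) and Cd40 (0.238 ± 0.132; SD, n = 12). In MCD livers Cd74 was at 701 ± 136 TPM and H2-Aa at 274 ± 56.2, and the first 7 genes kept their order. Cd40 (1.71 ± 0.381 TPM) then stood above Ciita (1.53 ± 0.292) in 8 of 12 MCD libraries, after being last in control. Some neighbours in the order did not hold it in every library. H2-Aa was above H2-Ab1 in 9 of 12 control and 8 of 12 MCD libraries. In control, H2-Ab1 was above H2-Eb1 in 11 of 12 libraries, H2-DMb1 above H2-DMa in 10, Ciita above Cd80 in 11 and Cd80 above Cd40 in 5. All other neighbours kept their order in all 12 libraries of a diet.

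Apart from the small prior count added before taking logs, ratios of genes within a library do not depend on library scaling. They show which genes changed unequally, and the prior count weighs more where counts are low. A set of 17 ratios was compared between the diets by two-sided permutation tests with 100000 resamples, adjusted over the 17, and 6 were past an adjusted p of 0.05. The classical chains kept step with each other. The log2 ratio of H2-Aa to H2-Ab1 differed by -0.04 between the diets (95% interval -0.16 to 0.08; permutation p adjusted, 0.567), that of H2-Eb1 to H2-Ab1 by 0.02 (-0.11 to 0.16; 0.75) and that of Cd74 to H2-Ab1 by -0.15 (-0.38 to 0.07; 0.241). None of these intervals reaches a change of more than 0.38 on the log2 scale.

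Ciita did not keep step with H2-Ab1. The log2 ratio of Ciita to H2-Ab1 was -4.24 ± 0.62 in control and -5.09 ± 0.21 in MCD (SD, n = 12 each), a difference of -0.85 (interval -1.26 to -0.44; permutation p adjusted, 0.000397), with 7 MCD libraries below every control library. The ratio of H2-DMa to H2-DMb1 fell by 0.23 on the log2 scale, from 0.24 to 0.01 (permutation p adjusted, 0.011), with 4 MCD libraries below every control library. That call was lost with the replicate number as a block (permutation p adjusted, 0.0515). Cd40 and Cd86 parted most. Their log2 ratio went from -2.69 ± 0.61 in control to -0.81 ± 0.39 in MCD, a difference of 1.88 (1.44 to 2.32; permutation p adjusted, 8.5e-05), and all 12 MCD libraries were above every control library. The ratio of Cd86 to Cd80 differed by -0.08 with an interval from -0.77 to 0.62 (permutation p adjusted, 0.82), too wide to show whether they changed alike.

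Ptprc, the gene common to leukocytes, was itself higher in MCD livers (10.3 ± 3.15 CPM in control, 25.3 ± 2.84 in MCD, SD, n = 12 each; log2 fold change 1.30), and each gene was therefore also set against it. Relative to Ptprc, Cd40 was higher in MCD by 1.03 on the log2 scale (0.50 to 1.56; permutation p adjusted, 0.00183). Cd86 fell by 0.85 on the log2 scale, from -1.65 ± 0.44 in control to -2.50 ± 0.24 in MCD (permutation p adjusted, 8.5e-05), and 10 of the MCD libraries fell below the whole control range. Cd80 was also lower, the difference being -0.77 (-1.35 to -0.20; permutation p adjusted, 0.023), on low counts. That call was lost with a prior count of 0.5 (permutation p adjusted, 0.249) and without MCD replicate 1 (0.0517), and also with the replicate number as a block.

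The 6 class II genes differed from Ptprc by 0.18 (H2-DMa) to 0.41 (H2-DMb1) on the log2 scale, with permutation p adjusted from 0.115 to 0.567. This outcome rested on control replicate 12, where, among control libraries, Ptprc was lowest and 5 of the 6 class II genes were highest. Without that library the differences were 0.37 (H2-DMa) to 0.61 (H2-Eb1) and all 6 were past an adjusted p of 0.05, which brought the count to 12 of the 17 ratios. Ciita differed from Ptprc by -0.48 (interval -0.92 to -0.03, not adjusted; permutation p adjusted, 0.0811), and by -0.37 without control replicate 12 (0.0837). It was past the threshold without control replicate 1 (-0.58) or 10 (-0.58).

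**Figure D3:**
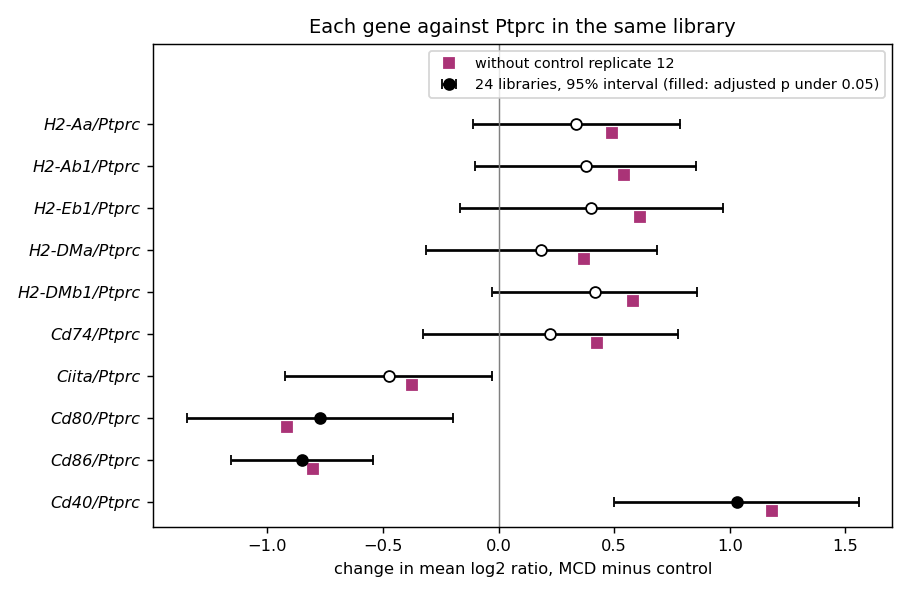
Change in the mean log2 ratio of each gene to Ptprc within a library, MCD minus control, with the unadjusted 95% interval (black; filled where the adjusted permutation p is under 0.05) and the value without control replicate 12 (purple square). Cd40 lies at 1.03, the class II genes between 0.18 and 0.41, and Ciita, Cd80 and Cd86 below 0.

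The genes were also compared among livers on the same diet. Within each diet, 4 genes were related to H2-Ab1 on log2 CPM, giving 8 relations, with two-sided permutation p adjusted over the 8. Cd74 followed H2-Ab1 closely, with Pearson's r of 0.909 in control (permutation p = 4e-05, or 0.00016 after adjustment) and 0.975 in MCD (permutation p = 1e-05, which no test with so many resamples can go below, or 8e-05 after adjustment). Spearman's rho was 0.867 (permutation p = 0.00064, or 0.00256 after adjustment) and 0.930 (permutation p = 3e-05, or 0.00024 after adjustment). When the 2 libraries with the most extreme H2-Ab1 level, measured from its median, were left out, r was 0.846 in control and 0.932 in MCD.

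Ciita followed H2-Ab1 less closely. Its r was 0.678 in control (permutation p = 0.0177, or 0.0354 after adjustment) and 0.606 in MCD (permutation p = 0.036, or 0.0576 after adjustment), with rho of 0.580 (permutation p = 0.0523, or 0.0837 after adjustment) and 0.629 (permutation p = 0.0313, or 0.0626 after adjustment). The control relation was not past the threshold without the 2 farthest libraries (r = 0.608; permutation p adjusted, 0.0996), and r in MCD was then 0.663 (permutation p adjusted, 0.0691). With total counts alone as the scaling, Ciita was past the threshold in both diets, with r of 0.734 for control livers and 0.730 for MCD livers (the permutation p, adjusted, was 0.012 for each). Cd40 had r of 0.539 in control (permutation p = 0.0723, or 0.0964 after adjustment) and 0.699 in MCD (permutation p = 0.0105, or 0.0281 after adjustment), with rho of 0.517 (permutation p = 0.0887, or 0.118 after adjustment) and 0.664 (permutation p = 0.0217, or 0.058 after adjustment). The MCD relation rested on 2 libraries, as r was 0.352 without them (permutation p adjusted, 0.357). In control r was 0.460 without the 2 farthest libraries (permutation p adjusted, 0.239). Cd86 had r of 0.519 in control (permutation p = 0.0852, or 0.0973 after adjustment) and -0.488 in MCD (permutation p = 0.107, or 0.107 after adjustment), with rho of 0.406 (permutation p = 0.193, or 0.22 after adjustment) and -0.343 (permutation p = 0.275, or 0.275 after adjustment), neither past the threshold. Leaving out the 2 farthest libraries gave Cd86 an r of 0.751 among control livers (permutation p adjusted, 0.0387). Among MCD livers its r was then -0.282 (permutation p adjusted, 0.457). No batch or sex was labelled within which these relations could be recomputed. They pool both sexes named in the series description, and the part of sex in them was not tested.

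**Figure D4:**
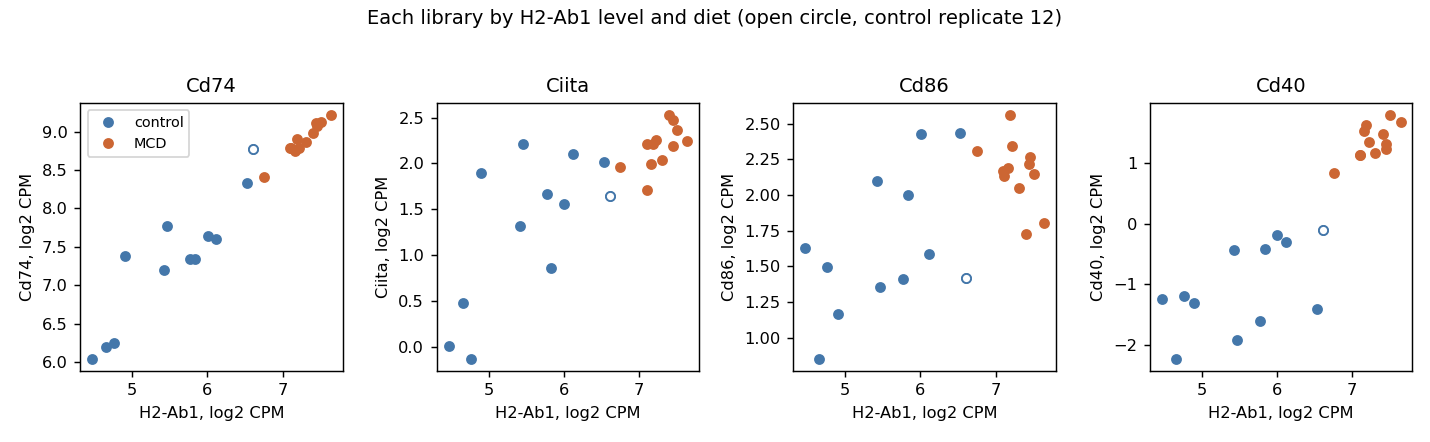
Log2 CPM of Cd74, Ciita, Cd86 and Cd40 (vertical) against log2 CPM of H2-Ab1 (horizontal) in each control (blue) and MCD (orange) library; the open circle is control replicate 12. Cd74 lies on a narrow line in both diets (r = 0.909 and 0.975), and Ciita, Cd86 and Cd40 scatter more widely within each diet.

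The other members were set against the mean log2 CPM of H2-Aa, H2-Ab1, H2-Eb1 and Cd74, centred within each diet over 24 libraries, as a description. H2-DMb1 had an r of 0.952 and H2-DMa of 0.943, Ciita of 0.757, Cd40 of 0.515, Cd86 of 0.327 and Cd80 of -0.19. Among 10112 genes with a mean of at least 5 CPM, the 10 most like this mean outside the set included Npdc1 (r = 0.925), Coro1a (0.894), Hcls1, Cacnb3, Cd52, Selplg, Tagln2, Aif1 and Efemp2 (0.856). Coro1a, Hcls1, Cd52, Selplg and Aif1 are known as genes of blood and immune cells. In control livers alone these 10 genes had r of 0.873 (Aif1) to 0.963 (Npdc1), and in MCD livers alone 0.251 (Selplg) to 0.837 (Tagln2). All libraries share 1 scaling, and control livers, with their wider spread, weigh more in the pooled value.

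The genes around the 10 were read from 3 lists. The list for processing and loading held 13 genes, of which 11 could be tested, and 8 were higher and 0 lower (median log2 fold change 1.11). Over all genes tested, the shares were 19.2% higher and 19.1% lower. Cathepsin S (Ctss), the protease that makes the last cuts of the invariant chain in dendritic cells and B cells, went from 40.1 ± 15.1 CPM in control to 353 ± 80.2 CPM in MCD (SD, n = 12 each), which is 3.14 higher on the log2 scale (edgeR FDR 4.8e-13, SE 0.18), with no overlap. Other endosomal genes were higher on a smaller scale, the log2 fold change being 1.44 for Ctsd (cathepsin D), 1.33 for Ifi30 (the reductase GILT) and 1.24 for Lgmn (legumain). H2-Oa (1.38) and H2-Ob (1.01), whose product restrains H2-DM, and H2-DMb2 (1.11), the close copy of H2-DMb1, were also higher. Each of these 3 was at 0.571 to 0.947 CPM in control and 1.50 to 2.06 CPM in MCD. Ctsb (0.86), named after its value was seen, was the remaining gene past the threshold.

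Not past it were Ctsl (0.39, within the fold limit), and Marchf1 (0.49, edgeR FDR 0.0443) and Marchf8 (-0.38, edgeR FDR 0.0311), whose products mark class II molecules for turnover. With total counts alone Ctsl (0.73) and Marchf1 (0.81) were past the threshold, Ctsl also with upper-quartile factors. H2-Ea was at 0, and H2-Eb2 (0 to 8 counts in control, 6 to 22 in MCD) was too low to be tested. Exons of H2-Oa, Ifi30, Ctsb, Ctsl and Marchf1 overlap an antisense gene, and Ctsl and Ctsd exons overlap a gene in the same orientation.

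The list for transcription and interferon gamma held 16 genes, of which 15 could be tested, and 4 were higher and 0 lower, the median log2 fold change being -0.10. By the same rule 19.2% of all genes tested were higher and 19.1% lower. Spi1 (1.78, SE 0.16, edgeR FDR 5.2e-10) and Irf8 (1.42, SE 0.12, edgeR FDR 2.4e-10), factors of myeloid and B cells, were higher in all 12 MCD libraries than in any control library. So were both chains of the interferon gamma receptor, Ifngr1 (1.16) and Ifngr2 (0.57). The subunits of the RFX complex that bind the X box had log2 fold changes of -0.28 (Rfx5), -0.19 (Rfxap) and -0.10 (Rfxank), none past the threshold. Those of NF-Y, which binds the Y box, were at 0.41 (Nfya), -0.36 (Nfyb) and -0.26 (Nfyc), all within the fold limit. With total counts alone the 3 RFX genes and Nfyc were above 0 and Nfya (0.75) was past the threshold, as it was with upper-quartile factors.

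Ifng itself was too low to be tested, with 0 or 1 count in control libraries and 0 to 6 in MCD libraries. Irf1 (0.19, edgeR FDR 0.162), which relays the interferon signal to Ciita, was not past the threshold, though it was with total counts alone (0.54). Jak1 (-0.35) and Jak2 (-0.28) were within the fold limit. Exons of Rfx5, Rfxank, Irf1 and Jak1 overlap an antisense gene, and Ifng exons overlap a gene in the same orientation.

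The list for T cell partners and other costimulators held 18 genes, of which only 8 could be tested, and 5 were higher and 1 lower. Among all genes tested, 19.2% were higher and 19.1% lower. Icosl, the ligand of ICOS, went from 1.58 ± 0.617 CPM in control to 6.63 ± 0.777 CPM in MCD (SD, n = 12 each; log2 fold change 2.06, SE 0.17, edgeR FDR 1.4e-10). Cd276 (1.89) encodes a relative of the B7 ligands, Cd83 (1.69) is a gene of mature dendritic cells and steadies class II on the surface, and all 3 separated the diets fully. Tnfrsf4 (1.40), which encodes OX40, and Lag3 (1.01), whose product binds class II molecules on T cells, were higher with overlap. Icos was the lower gene (-0.78, edgeR FDR 0.00696), at 0.879 CPM in control and 0.510 CPM in MCD. Its call was lost in 6 of 10 alternatives and in 14 of 24 fits without 1 library (control replicate 3, 5, 6 or 8, or any MCD replicate but 5 and 9), where the log2 fold change ran from -0.86 to -0.63, and 3 to 33 counts lay behind each value.

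Cd4 (0.61, edgeR FDR 0.0762) and Cd274 (0.54, edgeR FDR 0.0304), the gene of PD-L1, were not past the threshold, though Cd274 passed without control replicate 6 (0.65). Both were past it with total counts alone (1.03 for Cd4 and 0.86 for Cd274), and Cd274 also with upper-quartile factors. Of the 10 genes too low to test, Cd28, the receptor of CD80 and CD86, held 0 to 7 counts in control libraries and 8 to 21 in MCD libraries, and Cd40lg, the ligand of CD40, held 0 to 4 in both diets. Exons of Cd274 and Cd276 overlap a gene on the opposite strand.

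**Figure D5:**
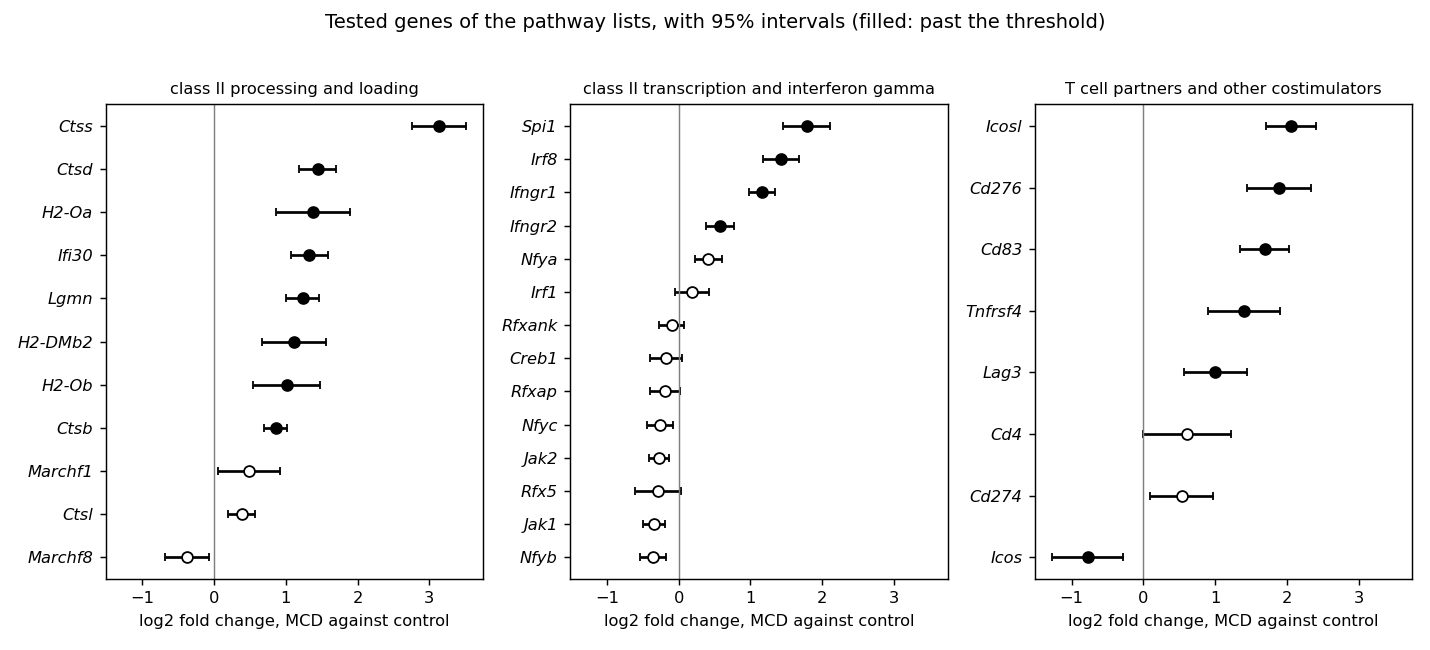
Log2 fold change of MCD against control for 33 tested genes of the 3 lists, with edgeR 95% intervals, filled where past the threshold. A further tested gene of the transcription list is not reported here. Ctss (3.14) leads the processing list, the RFX and NF-Y genes lie between -0.36 and 0.41 in the transcription list, and Icosl (2.06) leads and Icos (-0.78) ends the third list.

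Most markers of dendritic cells and all of macrophages and monocytes were higher along with the 8 genes, most of those of Kupffer cells were lower, and most of those of B cells were not past the threshold. The part of these cells in the results was not tested. For comparison with the counts below, 19.2% of all genes tested were higher and 19.1% lower. Of 9 dendritic cell markers tested, 6 were higher and 0 lower. Flt3 (1.64) and Xcr1 (1.73) were among the higher ones, while Clec9a (-0.09) and Zbtb46 (-0.37) were not past the threshold. Their summed level was 13.5 to 27.4 CPM in control and 57.3 to 115 CPM in MCD, where Itgax made up most of it. Of 10 markers of macrophages and monocytes all were higher, with sums of 118 to 356 CPM in control and 1535 to 3507 CPM in MCD. Among them Adgre1 (0.65) and Csf1r (0.67) had log2 fold changes near that of Ciita, and those of Cd68 (2.75) and Itgam (3.33) were above that of Cd40. Exons of Csf1r overlap an antisense gene, and Clec9a and Itgam exons overlap a gene in the same orientation.

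The markers of resident Kupffer cells went the other way, with 5 of 6 lower (against 19.1% of all genes tested) and 0 higher. Their sums were 149 to 445 CPM in control and 81.3 to 297 CPM in MCD. Timd4 fell by 4.10 on the log2 scale and Clec4f by 1.11, while Cd5l (0.01) was not past the threshold. B cell markers changed less, with 2 of 7 tested higher, against 19.2% of all genes tested, and 0 lower. Their sums overlapped, at 4.57 to 24.6 CPM in control and 14.2 to 22.9 CPM in MCD, and Ms4a1 (0.69) was not past the threshold. Cd22 (1.53), named after its value was seen, was among the higher ones. All 7 T cell markers tested were higher, with sums of 1.77 to 7.87 CPM in control and 7.77 to 26.0 CPM in MCD. Without control replicate 12 the highest control sum was 6.85 CPM, below every MCD library. No marker on any of these lists was at 0 in every library.

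Of the remaining markers, 5 of 5 for cholangiocytes were higher, 5 of 6 for endothelium were lower, and 2 of 6 for hepatocytes were lower, and none of these lists had a marker past the threshold in the opposite direction. The shares over all genes tested were 19.2% higher and 19.1% lower.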

How the data were processed

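The authors deposited raw counts per Ensembl gene for 24 mouse liver libraries, with no normalization. The submitters' processing notes name bcl2fastq, STAR 2.7.3a and mm10; the counting program, its annotation and its use of strand are not given for the mouse libraries in the sources used here (the study's methods name the exon quantification pipeline, PISCES and Ensembl for reads aligned to the human genome). Symbols came from GENCODE M21 by identifier (51745 of 56205 rows; the others held 0.0808% of counts), and 0 columns were left unused. Of the rows, 28652 were 0 in every library. No pair of libraries within a diet was identical (132 compared; lowest dispersion index 12.4, where sampling noise gives about 1).

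Genes passing filterByExpr (14109) were fitted with edgeR 4.0.16 in R 4.3.3 (TMM factors, glmQLFit, glmQLFTest, no covariate; biological coefficient of variation 26.8%). The threshold, an FDR of 0.01 and an absolute log2 fold change of 0.5, is the one the study used for human liver. Log2 CPM used a prior count of 2. Intervals are at 95% and, like the floor of 3 counts, cannot cover errors other than those of the fit or of counting. Permutation tests used 100000 resamples (numpy 2.4.6, scipy 1.17.1). The edgeR fit was also run on counts simulated from the means and fitted dispersions of these data. Alternatives were other scalings, filters and limits, DESeq2 1.42.0, limma-voom (limma 3.58.1), a replicate block, a sex-linked score as covariate, and leaving out each library. The relations within a diet were also computed with total counts alone and with a prior count of 0.5. The share of all genes whose diets do not overlap, under total counts alone and without control replicate 12, and the T cell marker sums without that library were added after seeing the data.

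All 10 members are named. From each of the pathway lists up to 6 genes past the threshold, by size of change, and genes needed as background are named, from each marker list the first 4 genes, and the 10 non-members most like the class II mean. Values of 3 genes that this rule names are not reported here, although they stay in the counts of their lists. The members and lists were chosen with earlier results of these data known. Aliases H2-Ea, Marchf1 and Marchf8 were matched to H2-Ea-ps, March1 and March8.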

Additional observations from a re-analysis of the deposited data

How the results depend on the processing

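The count of 8 higher genes was 7 to 9 over 11 alternatives. It was 9 where Cd86 joined the 8, and 7 with a log2 limit of 1, which Ciita missed. With at least 10 counts in every sample it was 8, but there Cd40 and Cd80 could not be tested and Cd86 passed. Over the 24 fits without 1 library the count was 8 to 9, with 0 lower in each of these fits and alternatives. The lists moved more. The T cell partner list had 10 higher genes with no low-count filter and 3 with at least 10 counts in every sample. Its lower count went from 1 to 0 with DESeq2, no filter, at least 10 counts, a log2 limit of 1, and scaling by relative log expression, by upper quartiles or by total counts, and from 0 to 1 over the leave-one-out fits. The processing list had 5 higher genes with at least 10 counts in every sample and 1 lower where an FDR of 0.05 was the sole limit. The transcription list had 7 higher genes with total counts alone and 4 lower where it was the sole limit. Under total counts alone the signs reversed for Creb1 (0.16), Jak2 (0.073), Nfyc (0.11), Rfx5 (0.046), Rfxank (0.28) and Rfxap (0.19), and for Rfxank with upper-quartile factors (0.052). Total counts alone move the median of all genes by 0.37 and upper-quartile factors by 0.15. The balance over all genes was 4539 higher and 848 lower (84.3% higher) with total counts alone and 65.6% higher with upper-quartile factors, against 50.2%. Of the 17 ratios, 5 to 12 were past the threshold when 1 library was left out, the 12 without control replicate 12. The ratio of Cd86 to Cd80 ran from -0.22 to 0.11 over the same fits.

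Control and MCD libraries of the same number were more alike (median r 0.233) than those of different numbers (-0.059). Of the 12 same-numbered pairs, 8 correlated above 0.1. The main tests did not take the numbers as pairing, and what same-numbered libraries have in common was not tested. With the number as a replicate block the count of higher genes was 8 and the number of ratios past the threshold went from 6 to 4, the ratios of H2-DMa to H2-DMb1 (permutation p adjusted, 0.0515) and of Cd80 to Ptprc no longer being past it. No other call named from the fits changed with the block. For the other values, 100 of 108 fold changes of the 10 genes and 333 of 367 of the pathway genes kept their direction and side of the threshold over the alternatives.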
